A study of Mus musculus with 4 samples.

Results

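The 10 genes described here encode the core BCL2 family of apoptosis regulators and were chosen by name from the 26322 genes listed for MC38 cells. They comprise 3 pro-survival genes (Bcl2, Bcl2l1 and Mcl1), 2 effector genes (Bax and Bak1) and 5 BH3-only genes (Bad, Bid, Bbc3, Pmaip1 and Bcl2l11), and all 10 were listed and passed the low-value filter. MC38 is a mouse colon carcinoma line. The libraries labelled WT came from MC38 cells electroporated with Cas9 bound to a non-targeting guide (sgNT, n = 2), and those labelled CbfbKO from MC38 cells electroporated with Cas9 bound to a single Cbfb-targeting guide (sgCbfb, n = 2). RNA was collected at least 1 week after electroporation and profiled by 3′ mRNA sequencing. The labels name no clone and no exposure to TNF or T cells. They do not say whether replicates came from separate cultures, so p-values measure the spread between these libraries, which may be technical. CBFβ is the partner subunit that strengthens DNA binding by the RUNX transcription factors, and the comparison asked how its loss changes the mRNA of tumour cells.

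BCL2 family proteins set the threshold for mitochondrial apoptosis. The pro-survival proteins hold the effectors BAX and BAK in check, BH3-only proteins relay stress signals by binding pro-survival proteins or by activating the effectors, and active effectors permeabilise the outer mitochondrial membrane so that cytochrome c is released and caspases are activated. In death receptor signalling, caspase-8 cleaves BID, and the truncated protein carries the TNF signal to mitochondria. Many of these proteins are regulated by cleavage, phosphorylation or degradation, which mRNA levels do not show.

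The libraries held between 3189035 and 3907936 reads counted on genes, so that 1 read was worth between 0.256 and 0.314 CPM, the library's reads scaled to a common total. The targeted gene was checked first. Cbfb had 295 and 285 reads in sgNT and 125 and 125 in sgCbfb libraries, which left 41.5% of the sgNT level (Benjamini-Hochberg adjusted p = 1.76e-07 in limma). That call was lost when either sgCbfb library was left out (adjusted p = 0.267 without sgCbfb 1 and 0.193 without sgCbfb 2, from limma), without a low-value filter (0.29) and without the mean-variance trend (0.115). The log2 fold change of Cbfb was -1.12 without sgCbfb 1 and -1.41 without sgCbfb 2, against -1.27 with all libraries, and limma called 0 genes in either of those fits (1104 and 1169 at an unadjusted p-value under 0.05). The labels name the cells as colorectal cancer, but intestinal epithelial markers were nearly absent. Of 11 such genes, 5 had no read in any library, Cdx1, Vil1 and Krt18 among them, and their summed level lay between 1.77 and 1.8 CPM in sgNT and between 1.57 and 1.79 CPM in sgCbfb libraries. Leukocyte markers summed to between 0.3 and 1.47 CPM in sgNT and between 0.941 and 1.02 CPM in sgCbfb libraries, with 7 of 11 at no read. Endothelial markers reached at most 0.6 CPM in sgNT and 0.512 CPM in sgCbfb libraries. Mesenchymal markers summed to between 2560 and 2700 CPM in sgNT and between 2260 and 2350 CPM in sgCbfb libraries. Most of that was Vim, with 2380 and 2530 CPM in sgNT and 2220 and 2110 CPM in sgCbfb libraries. Col1a2 had at most 2 reads per library and was not tested. Of 6 tested, 1, Col3a1, was called lower (against 1.25% of all genes) and 0 higher. The groups did not overlap for any of the 6, with log2 fold changes of 0.53 for Pdgfra (adjusted p = 0.0515 from limma), 0.82 for Pdgfrb and 0.41 for Col1a1 (higher, against 27.4% of all genes), and -0.18 for Vim (adjusted p = 0.0538) and -0.17 for Dcn besides Col3a1 (lower, against 16.8%). What part these markers have in the results on the family was not tested.

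None of the 10 BCL2 family genes changed past the threshold in sgCbfb cells. At an adjusted p-value under 0.05, limma called 0 of 10 higher (against 1.57% of the 12207 genes tested) and 0 of 10 lower (against 1.25%), where 2.83% of all genes were called in either direction. At an unadjusted p-value under 0.05 the count was also 0 of 10, against 14.9% of all genes (9.67% higher and 5.23% lower). At an adjusted p-value under 0.05, both voom fits on the recovered reads also called 0 of 10, and at an unadjusted p-value under 0.05 voom counted 0 with library totals and 1, Mcl1, with TMM scaling (a trimmed mean of log ratios between libraries). The log2 fold changes ran from -0.17 for Mcl1 to 0.26 for Bcl2, 5 above and 5 below 0. Their median was 0.055, beside 0.039 over all genes tested. Only 3 of the 10 had an absolute log2 fold change above 0.17, the median over all genes. In 6 of the 10 the sgCbfb libraries did not overlap the sgNT libraries (60%, against 44.1% of all genes), 4 of them higher (27.4% of all genes) and 2 lower (16.8% of all genes), and the count fell to 5 with quantile normalization and 4 with TMM scaling. For a family gene taken alone, the smallest p that exact permutation of 2 and 2 libraries allows is 0.333.

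**Figure D1:**
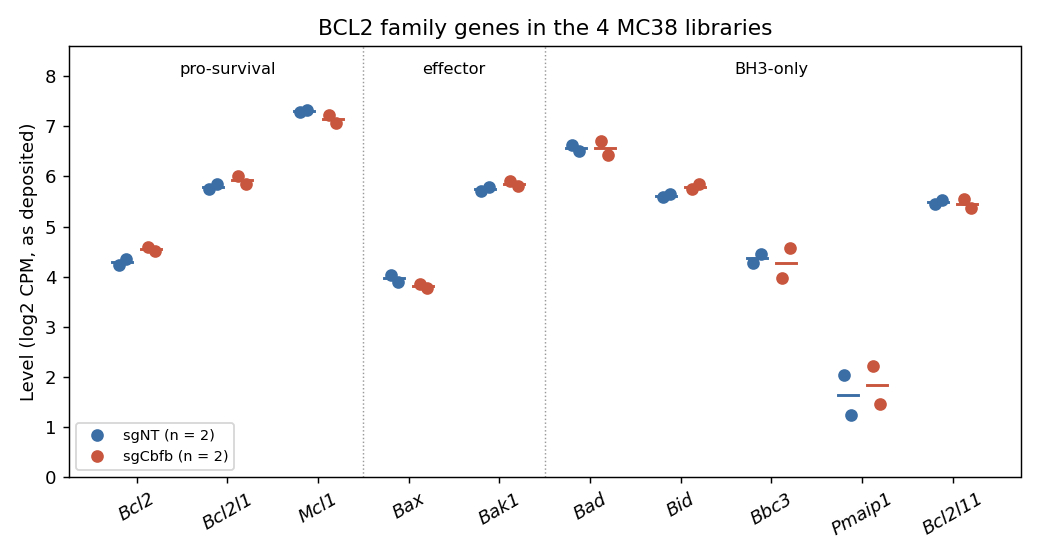
Level of each BCL2 family gene in log2 CPM (vertical axis) in the 2 sgNT and 2 sgCbfb libraries. Points are libraries and bars are group means. The sgNT and sgCbfb points of each gene lie close together compared with the distance from Mcl1 (7.31 in sgNT) to Pmaip1 (1.64 in sgNT).

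The size of change that the data leave room for differed between genes. All 10 of the 95% intervals of the log2 fold change included 0. In 9 of 10 the interval lay within 1 on the log2 scale in either direction, the exception being Pmaip1. In 6 of 10 it lay within 0.5, namely Bcl2l1, Mcl1, Bak1, Bad, Bid and Bcl2l11, and only that of Bad lay within 0.25. These intervals come from limma on the deposited log2 values, whose added prior count pulls the differences of the lowest genes towards 0.

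**Figure D2:**
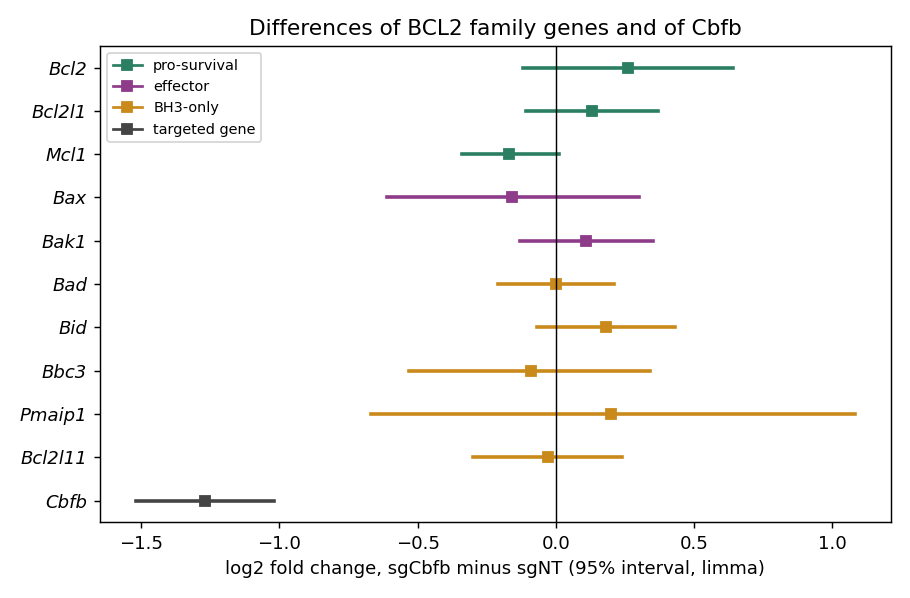
Log2 fold change of each BCL2 family gene and of Cbfb, sgCbfb minus sgNT, with squares for the estimate and lines for the 95% interval from limma (n = 2 libraries per group). All 10 family intervals cross 0, while that of Cbfb runs from -1.52 to -1.02.

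Across the family the levels spanned a wide range. A 3′ library takes reads from the transcript's end, so CPM values were compared between genes without a correction for length. The annotation lists from 2 to 8 distinct ends of coding transcripts per family gene. How fully reads at these ends were counted was not tested, so the order is one of CPM and not of molecules. In sgNT cells the order by mean log2 CPM was Mcl1, Bad, Bcl2l1, Bak1, Bid, Bcl2l11, Bbc3, Bcl2, Bax and Pmaip1. Of the neighbours in that order, only Bcl2l1 with Bak1 and Bbc3 with Bcl2 had overlapping libraries. In sgCbfb cells the order was the same except that Bcl2 stood above Bbc3, and Bcl2l1 with Bak1, Bak1 with Bid and Bcl2 with Bbc3 overlapped. Mcl1 averaged 158 CPM in sgNT cells, above 91.1% of the genes tested, and Pmaip1 averaged 2.67 CPM, above 17.9%.

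Mcl1, a short-lived pro-survival protein that restrains BAK, had the smallest p-value of the family. The gene lies on the plus strand of chromosome 3 (95658788 to 95663176, GRCm38) and has 3 exons in its first listed coding transcript. Mcl1 was 7.29 and 7.33 log2 CPM in sgNT libraries and 7.23 and 7.06 in sgCbfb libraries, from 530, 536, 585 and 424 reads. Both sgCbfb values lay below both sgNT values. Its log2 fold change was -0.17 (standard error 0.0835, 95% interval -0.34 to 0.01, adjusted p = 0.36 from limma), which corresponds to 89.1% of the sgNT level. Without sgCbfb 1 it was -0.25 and without sgCbfb 2 it was -0.08. From the pooled reads alone, 1066 in sgNT and 1009 in sgCbfb, the level was 89.8% with an exact interval from 82.3% to 97.9%, which covers counting error only. Such intervals were taken for all 10 family genes. Those of the other genes all included the sgNT level, that of Bid running from 97.4% to 132%. The unadjusted p-value of Mcl1 fell under 0.05 with median centring, quantile normalization, ribosomal RNA genes left out of the totals, voom with TMM scaling or sgCbfb 1 left out, where the adjusted p-values from limma ran from 0.204 to 0.551.

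Bcl2, the founding pro-survival member, had the largest log2 fold change of the family in the deposited values, though not under every alternative. Pmaip1 equalled it in voom with library totals (0.27 each) and passed it with TMM scaling (0.24 against 0.23), and with any single library left out other than sgNT 2 at least 1 other family gene had a larger difference. Bcl2 lies on the minus strand of chromosome 1 (106538178 to 106714274, GRCm38). Its levels were 4.24 and 4.35 log2 CPM in sgNT libraries (62 and 66 reads) and 4.59 and 4.51 in sgCbfb libraries (92 and 71 reads). Both sgCbfb libraries stood above both sgNT libraries. The log2 fold change was 0.26 (standard error 0.183, 95% interval -0.12 to 0.64, adjusted p = 0.558 from limma), or 120% of the sgNT level with an interval from 92.2% to 156%. Its unadjusted p-value fell under 0.05 only without a low-value filter, among the 17 alternatives. An antisense gene that overlaps Bcl2, D630008O14Rik, was listed with 0 reads in every library.

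Bcl2l1 encodes BCL-XL, which binds BAX, BAK and several BH3-only proteins, and lies on the minus strand of chromosome 2 (152780668 to 152831728, GRCm38). Its libraries gave 5.75 and 5.84 log2 CPM in sgNT and 6.01 and 5.84 in sgCbfb cells, with 181 and 189 against 249 and 181 reads. The lower sgCbfb library exceeded the higher sgNT library by a margin too small to show at these decimals. The sgCbfb mean exceeded the sgNT mean by 0.13 on the log2 scale (standard error 0.116, 95% interval -0.11 to 0.37, adjusted p = 0.677 from limma). That difference was 0.05 without sgCbfb 1, 0.08 without sgNT 1 and 0.21 without sgCbfb 2. The annotation lists 8 coding transcripts of Bcl2l1. Values per gene do not separate the long and short splice forms of Bcl2l1 or Mcl1, whose proteins are known to act in opposite ways.

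The effector genes had log2 fold changes of opposite sign, both within their error. Bax, on the minus strand of chromosome 7 (45461697 to 45466898, GRCm38), had 54 and 48 reads in sgNT and 54 and 42 in sgCbfb libraries. Its levels were 4.04 and 3.90 log2 CPM in sgNT and 3.85 and 3.78 in sgCbfb cells, the latter both lower. For Bax the log2 fold change was -0.16 (standard error 0.22, 95% interval -0.61 to 0.30, adjusted p = 0.811 from limma). The Bax value was -0.09 without sgNT 1 and -0.23 without sgNT 2. Bak1 encodes the effector that resides on mitochondria and had a higher CPM than Bax in every library. It lies on the minus strand of chromosome 17 (27019810 to 27029009, GRCm38). It was 5.70 and 5.79 log2 CPM in sgNT and 5.91 and 5.80 in sgCbfb libraries, both sgCbfb values being the higher, with a log2 fold change of 0.11 (standard error 0.117, 95% interval -0.13 to 0.35, adjusted p = 0.726 from limma). The Bak1 value was 0.06 without sgNT 1 or without sgCbfb 1 and 0.17 without sgCbfb 2. Ggnbp1, which overlaps Bak1 on the opposite strand, had at most 3 reads per library.

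Bid links death receptors to mitochondria and is the family gene nearest to TNF signalling. It lies on the minus strand of chromosome 6 (120891930 to 120916853, GRCm38). Its levels were 5.58 and 5.65 log2 CPM in sgNT libraries (161 and 165 reads) and 5.74 and 5.85 in sgCbfb libraries (207 and 182 reads). The sgCbfb libraries were both the higher. Bid had a log2 fold change of 0.18 (standard error 0.119, 95% interval -0.07 to 0.43, adjusted p = 0.524 from limma), which corresponds to 113% of the sgNT level with an interval from 95.5% to 135%. With any single library left out it stayed between 0.13 and 0.23. Bid overlaps Bcl2l13 on the opposite strand, and the sources used here do not say whether strand was used in counting, so reads in the overlap may be shared. Bcl2l13 had 101 and 74 reads in sgNT and 95 and 84 in sgCbfb libraries.

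Bad and Bcl2l11 were almost level between the groups. Bad, whose protein binds BCL-XL and BCL2 unless phosphorylated by survival kinases, lies on the plus strand of chromosome 19 (6941861 to 6951899, GRCm38). It was 6.62 and 6.51 log2 CPM in sgNT and 6.70 and 6.43 in sgCbfb libraries, so that the sgCbfb values enclosed the sgNT values. The log2 fold change was 0.00 (standard error 0.102, 95% interval -0.21 to 0.21, adjusted p = 0.995 from limma). It was 0.05 without sgNT 1 and 0.13 without sgCbfb 2. Gpr137, which overlaps Bad on the opposite strand, had between 73 and 106 reads per library, against 273 to 403 for Bad.

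Bcl2l11 encodes BIM, which binds all the main pro-survival proteins and can activate the effectors. It lies on the plus strand of chromosome 2 (128126038 to 128162547, GRCm38). Its levels were 5.44 and 5.52 log2 CPM in sgNT libraries (145 and 151 reads) and 5.54 and 5.36 in sgCbfb libraries (180 and 129 reads), which overlapped. The log2 fold change was -0.03 (standard error 0.131, 95% interval -0.30 to 0.24, adjusted p = 0.955 from limma). It turned to 0.02 without sgNT 2 and 0.07 without sgCbfb 2.

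Bbc3 and Pmaip1, which encode the p53-inducible BH3-only proteins PUMA and NOXA, had differences whose direction depended on single libraries. Bbc3, on the plus strand of chromosome 7 (16308393 to 16318205, GRCm38), was 4.28 and 4.45 log2 CPM in sgNT and 3.97 and 4.57 in sgCbfb libraries. The 2 sgCbfb libraries lay on either side of the sgNT libraries, with 59 and 74 reads. Its log2 fold change was -0.09 (standard error 0.21, 95% interval -0.53 to 0.34, adjusted p = 0.888 from limma). It was 0.21 without sgCbfb 1 and -0.39 without sgCbfb 2, so its direction depended on which sgCbfb library was kept.

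Pmaip1, on the plus strand of chromosome 18 (66458533 to 66465565, GRCm38), had only 12 and 6 reads in sgNT and 16 and 7 in sgCbfb libraries. In log2 CPM these were 2.04 and 1.25 against 2.22 and 1.47, and the groups overlapped. The log2 fold change was 0.20 (standard error 0.425, 95% interval -0.67 to 1.08, adjusted p = 0.883 from limma), which corresponds to 115% of the sgNT level with an interval from 62.6% to 212%. It was -0.19 without sgNT 2 and -0.17 without sgCbfb 1.

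The summed mRNA of the family was nearly equal in both groups. All 10 genes together made up 505 and 515 CPM in sgNT libraries and 532 and 489 CPM in sgCbfb libraries, so that the sgCbfb libraries enclosed the sgNT libraries. The pro-survival genes summed to 228 and 237 CPM in sgNT and 237 and 212 CPM in sgCbfb libraries. Their share of the family was 45.1% and 46.0% in sgNT and 44.6% and 43.4% in sgCbfb libraries, lower in both sgCbfb libraries, and Mcl1 carried most of it. The effector genes took 13.3% and 13.4% in sgNT and 13.8% and 14% in sgCbfb libraries. The BH3-only genes took 41.6% and 40.5% in sgNT and 41.6% and 42.7% in sgCbfb libraries, with Bad the most abundant. These shares were not tested, since the genes were chosen by name and a few of them carry each sum.

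**Figure D3:**
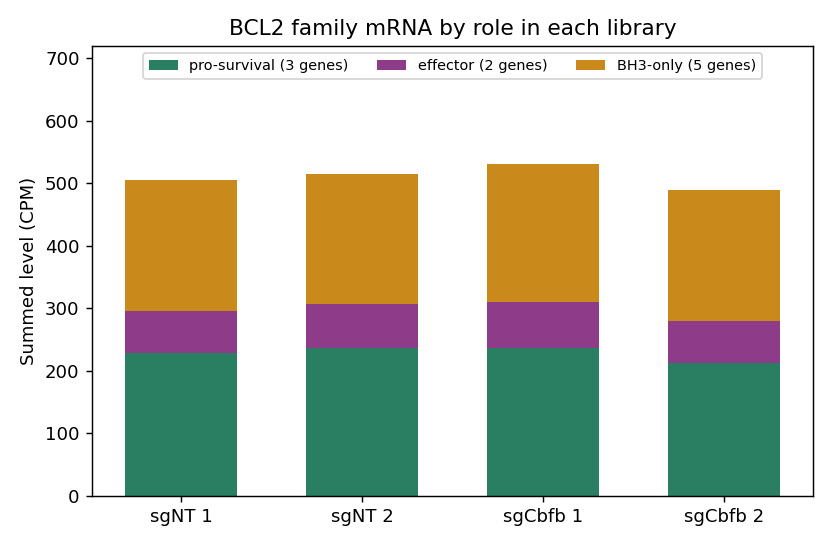
Summed level in CPM (vertical axis, from 0) of the pro-survival, effector and BH3-only genes in each of the 4 libraries. The totals lie between 489 CPM (sgCbfb 2) and 532 CPM (sgCbfb 1), with the sgNT libraries between them.

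Because the balance between partners matters for apoptosis, differences between 6 pairs of known binding partners were also taken within each library, as log2 level of the pro-survival gene minus that of its partner. Mcl1 minus Bak1 was 1.6 and 1.54 in sgNT and 1.32 and 1.26 in sgCbfb libraries, a shift of -0.28. Mcl1 minus Bcl2l11 was 1.86 and 1.81 in sgNT and 1.69 and 1.70 in sgCbfb libraries. For these pairs the sgCbfb libraries were the lower ones and the groups did not overlap.

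Bcl2 minus Bcl2l11 was -1.20 and -1.17 in sgNT and -0.95 and -0.84 in sgCbfb libraries, a shift of 0.29. Bcl2l1 minus Bax was 1.71 and 1.94 in sgNT and 2.16 and 2.06 in sgCbfb libraries, also a shift of 0.29. Neither pair overlapped between the groups, and the sgCbfb libraries were the higher ones. Bcl2l1 minus Bad (a shift of 0.13) and Mcl1 minus Pmaip1 (-0.37) had overlapping libraries. The pairs share genes, no test was run on them, and among single genes 44.1% did not overlap between these groups, so no change in balance is read from them.

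CBFβ acts on DNA through RUNX proteins, so the start regions of the family were searched for the RUNX core motif. Start regions, from 250 bases before to 50 bases after each annotated start, came from RefSeq (GRCm38.p6) and were found for 9 of the 10 genes, in 15 windows. The letters searched were TGTGGT and TGCGGT on both strands. They occurred in 3 of 15 windows (20%) of the family, against 22.4% of all 32851 windows of the same length, and the genes that held them were Bcl2l11 and Bak1. A match of this kind describes the sequence and not a bound site. The upstream part of the Bcl2l11 start, the family gene with most matches, is shown first, followed by the matches at its second start and at Bak1, with the motif in capitals, and then by the upstream parts of Bcl2 and Mcl1, which had the largest log2 fold change in the deposited values and the smallest p-value and hold no such letters.
Bcl2l11, chr2:128125788-128126037, plus strand: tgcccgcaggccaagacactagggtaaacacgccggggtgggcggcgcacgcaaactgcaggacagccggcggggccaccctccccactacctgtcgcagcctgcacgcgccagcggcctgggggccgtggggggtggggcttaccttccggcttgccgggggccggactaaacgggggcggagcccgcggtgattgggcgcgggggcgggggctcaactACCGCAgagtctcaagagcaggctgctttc
Bcl2l11, second start, match from 128127364 to 128127369 of chromosome 2, plus strand: ccagccggagcTGCGGTggccggcacag
Bak1, match from 27028843 to 27028848 of chromosome 17, minus strand: ttgttgttgtcTGTGGTttgcttttcac
Bcl2, chr1:106714291-106714540, minus strand: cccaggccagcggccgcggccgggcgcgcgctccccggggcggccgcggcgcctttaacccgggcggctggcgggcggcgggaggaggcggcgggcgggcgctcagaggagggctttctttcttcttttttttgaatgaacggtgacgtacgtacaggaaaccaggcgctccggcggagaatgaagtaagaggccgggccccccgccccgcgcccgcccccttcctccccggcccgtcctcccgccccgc
Mcl1, chr3:95658471-95658720, plus strand: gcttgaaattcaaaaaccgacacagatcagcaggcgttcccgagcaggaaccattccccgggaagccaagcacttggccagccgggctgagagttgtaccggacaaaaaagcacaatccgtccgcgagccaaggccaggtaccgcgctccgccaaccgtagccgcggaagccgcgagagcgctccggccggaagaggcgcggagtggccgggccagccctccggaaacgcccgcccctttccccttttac
In the first Bcl2l11 window the capitals start 30 bases before the annotated start, and a further match begins 44 bases after it. In the second the match starts 211 bases before the start, and in Bak1 it starts 221 bases before. Neither gene that held the motif changed past the threshold.

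The rest of the apoptosis machinery was followed in 7 lists that hold 87 further genes, of which 71 were tested. Of these, limma called 2 higher and 0 lower in sgCbfb cells (2.82%, against 2.83% of all genes), and at an unadjusted p-value under 0.05, 12 were higher (against 9.67% of all genes) and 3 lower (against 5.23%). Both genes called were Runx genes in the list of transcription regulators. The median log2 fold change over the 71 genes was 0.079, beside 0.039 over all genes.

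**Figure D4:**
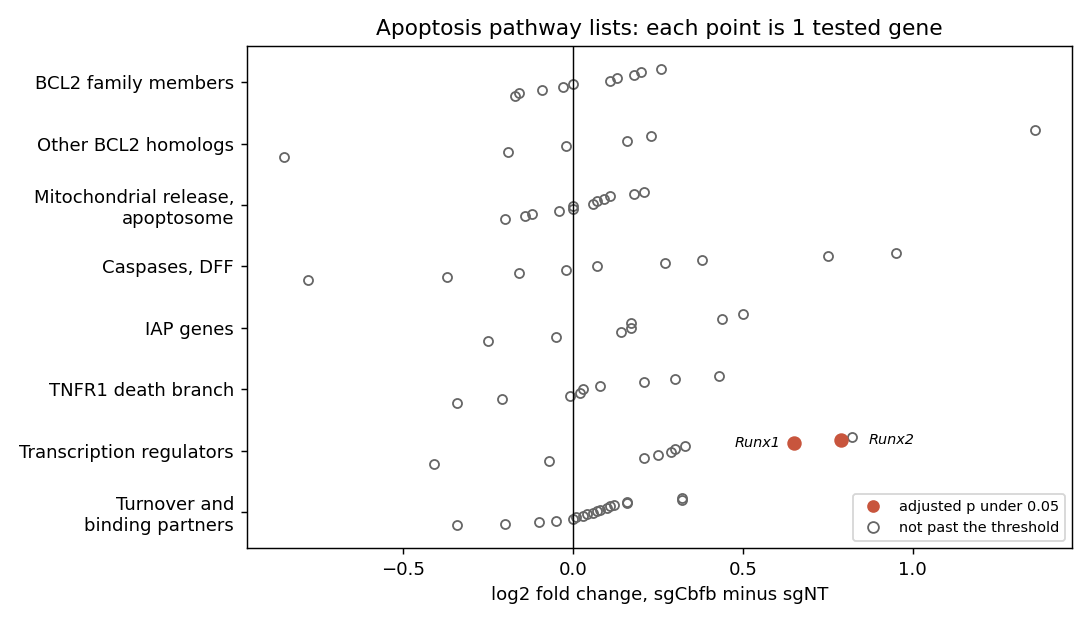
Log2 fold change (horizontal axis, sgCbfb minus sgNT) of each tested gene of the BCL2 family and of 7 further lists, with filled points for genes past an adjusted p of 0.05 from limma. Only Runx1 (0.65) and Runx2 (0.79) are filled.

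Among the other BCL2 homologs, 6 of 14 were tested and 0 were called by limma, with 1 higher (against 9.67% of all genes) and 0 lower (against 5.23%) at an unadjusted p-value under 0.05. The 4 Bcl2a1 genes, Bcl2l10, Bcl2l14 and Hrk had no read in any library, and Bik had at most 1. A floor of 3 reads corresponds to less than 1 CPM at this depth, which is the limit that a count of 0 allows, and the near-identical Bcl2a1 copies could have lost reads that match more than 1 gene. The smallest p-values belonged to Bcl2l15 (4 and 2 reads in sgNT, 11 and 11 in sgCbfb libraries, adjusted p = 0.115), Bmf, a BH3-only gene (10 and 7 against 3 and 5 reads, adjusted p = 0.396), and Bok, an effector-like member (53 and 64 against 79 and 66 reads, adjusted p = 0.644, all from limma).

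Downstream of the effectors, the 12 genes of mitochondrial release and the apoptosome showed 0 calls and 0 unadjusted p-values under 0.05 by limma. Vdac3, a channel of the outer membrane, differed by 0.21 (adjusted p = 0.493), Opa1, which shapes the cristae, by -0.14 (adjusted p = 0.649) and Diablo, an antagonist of the inhibitors of apoptosis, by 0.18 (adjusted p = 0.679). Cycs, which encodes cytochrome c, had a log2 fold change of 0.00 (standard error 0.102 from limma), and Apaf1, the scaffold of the apoptosome, one of -0.20 (standard error 0.221).

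The 9 caspase and DNA fragmentation factor genes likewise gave 0 calls by limma, with 2 higher (against 9.67% of all genes) and 1 lower (against 5.23%) at an unadjusted p-value under 0.05. Casp12, a caspase of the endoplasmic reticulum, came closest, with 67 and 57 reads in sgNT and 39 and 35 in sgCbfb libraries (log2 fold change -0.78, standard error 0.224, adjusted p = 0.0611 from limma). It passed the threshold with a minimum of 5 CPM, robust variance estimation, either voom fit or the replicate number as a block. Casp2 rested on 7 and 11 against 17 and 23 reads (adjusted p = 0.214), and Casp6, an executioner caspase, differed by 0.38 (adjusted p = 0.307). Casp8, the initiator caspase of the TNF pathway, had a log2 fold change of 0.07 (limma standard error 0.159) and did not pass the threshold.

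Of the 10 genes for inhibitors of apoptosis proteins (IAPs), 7 were tested and 0 were called by limma, with 0 at an unadjusted p-value under 0.05. Birc6 differed by 0.14 (adjusted p = 0.396), Birc2, which encodes cIAP1, by -0.25 (adjusted p = 0.568) and Naip2 by 0.44 (adjusted p = 0.58). Xiap, the direct caspase inhibitor, had 122 and 116 reads in sgNT and 130 and 152 in sgCbfb libraries, which came to 0.17 on the log2 scale (limma standard error 0.156, adjusted p = 0.684).

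In the TNFR1 branch that leads to BID cleavage, 0 of 9 genes were called by limma, with 1 higher (against 9.67% of all genes) and 1 lower (against 5.23%) at an unadjusted p-value under 0.05. Cflar, which encodes the caspase-8 inhibitor c-FLIP, had 81 and 75 reads in sgNT and 122 and 101 in sgCbfb libraries (log2 fold change 0.43, standard error 0.16, adjusted p = 0.174 from limma). Cyld, a deubiquitinase of the receptor complex, differed by -0.21 (adjusted p = 0.317) and Ripk3, a kinase of necroptosis, by -0.34 (adjusted p = 0.649). Tnfrsf1a itself had a log2 fold change of 0.03 (standard error 0.112, from limma).

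Among 14 transcription regulators known to act on BCL2 family genes, 10 were tested and 2 were called higher by limma (20%, against 1.57% of all genes). Both were Runx genes, whose proteins are partners of CBFβ, and the list was chosen with earlier results of these data known. The 20% is therefore not read as a result about regulators of the family. At an unadjusted p-value under 0.05 from limma, 5 were higher (against 9.67% of all genes) and 1 lower (against 5.23%). Runx1 rose from 249 and 252 reads in sgNT to 455 and 378 in sgCbfb libraries (log2 fold change 0.65, standard error 0.0934, adjusted p = 6.84e-05). Runx2 rose from 55 and 52 to 108 and 90 reads (log2 fold change 0.79, standard error 0.181, adjusted p = 0.0123). Without sgCbfb 1 the adjusted p was 0.386 for Runx1 and 0.551 for Runx2, and without sgCbfb 2 it was 0.396 and 0.511. Without a low-value filter it was 0.117 and 0.165, and without the mean-variance trend 0.176 and 0.136. The differences themselves hardly moved, from 0.61 to 0.68 for Runx1 and from 0.75 to 0.82 for Runx2 over the 17 alternatives. Runx2 also lost its call without sgNT 1 (adjusted p = 0.0582), without sgNT 2 (0.0854) and with quantile normalization (0.121, all from limma). Foxo1, a factor known to act on Bcl2l11 and Bbc3, went from 26 and 47 to 75 and 59 reads (adjusted p = 0.0842) and passed the threshold under some alternatives. Trp53, the regulator of Bax, Bbc3 and Pmaip1, differed by 0.25 on the log2 scale, which did not pass the threshold (limma adjusted p = 0.485).

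Of 19 genes for turnover and binding partners of BCL2 family proteins, 18 were tested, 0 were called by limma, and 3 were higher (against 9.67% of all genes) and 0 lower (against 5.23%) at an unadjusted p-value under 0.05. These were Bnip3, a mitochondrial BH3-like protein (log2 fold change 0.32, adjusted p = 0.169), the chaperone gene Bag6 (0.32, adjusted p = 0.211) and Dynll2, the light chain that tethers BMF (0.16, adjusted p = 0.247). The 4 genes of the list that act on MCL1 protein stability did not pass the threshold, with log2 fold changes of 0.16 for the deubiquitinase Usp9x and, among ubiquitin ligase genes, 0.00 for Huwe1, -0.20 for Fbxw7 and -0.34 for Btrc (standard error 0.243).

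**Figure D5:**
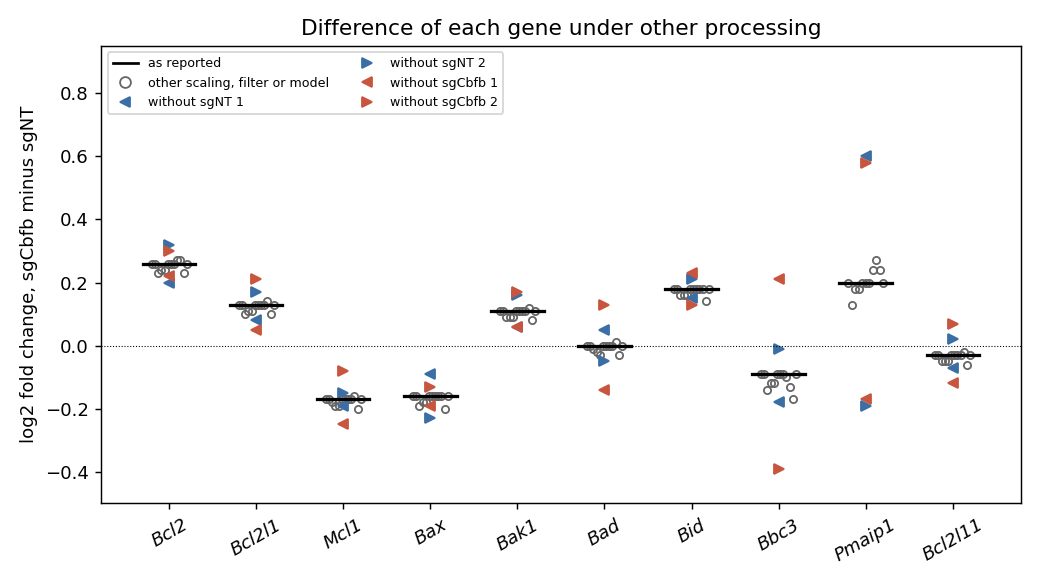
Log2 fold change of each BCL2 family gene (vertical axis, sgCbfb minus sgNT) as reported (bar), under other scalings, filters and variance models (open circles) and with each library left out (triangles). Pmaip1 and Bbc3 spread most, Pmaip1 from -0.19 to 0.60 and Bbc3 from -0.39 to 0.21, through single libraries.

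The 17 alternatives left the family without a call, though some of them could not have given one. The smallest adjusted p-value that any family gene reached was 0.204, for Mcl1 in voom with TMM scaling. For Bcl2, Bcl2l1, Mcl1, Bax, Bak1 and Bid the direction was the same under every alternative run. It turned for Bad, Bbc3, Pmaip1 and Bcl2l11, as the plot of differences under other processing shows. Alternatives that changed only the filter, the variance model or the threshold could not turn a direction.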

How the data were processed

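The authors used cutadapt 1.9 for trimming of 3′ mRNA reads and HISAT2 2.1.0 for alignment (GRCm38/mm10), and counted reads per gene with featureCounts (2.0.1 in the submitters' processing notes). The annotation, the use of strand and the handling of reads that match more than 1 gene are not given in the sources used here. The authors deposited log2 CPM per library, with an implied prior count of 2. A further replicate of each group was left out by the authors for RNA quality. Whole reads were recovered from the steps between low values (at least 99.99% of values within 0.1 of a whole number) and describe depth and some alternatives. Sums by role use CPM of recovered reads, and their alternatives use log2 values that include a prior count.

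The deposited log2 values were tested with limma (version 3.58.1, R 4.3.3; mean-variance trend, two-sided, Benjamini-Hochberg over the 12207 genes that reached a log2 CPM of 0 in 2 or more libraries, threshold 0.05, intervals at 95%). This replaces the study's voom, which takes counts. All 10 family genes are named, and for each list every called gene and those with the smallest p-values up to 3; a few others were named for their role after their values were seen. The members, lists and tests were chosen with earlier results of these data known. The test was checked on simulated data. Positions are from GENCODE M21. Scripts used Python 3.11.15, scipy 1.17.1 and matplotlib 3.10.9. The result of 1 listed gene is not reported here.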

Additional observations from a re-analysis of the deposited data

How the results depend on the processing

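Counts of BCL2 family genes past the threshold stayed at 0 higher and 0 lower under all 17 alternatives. Some of these could not have added a call. The threshold of 0.01 applies a stricter cutoff to the same fit, and the fit with no mean-variance trend called 0 genes over all. Fits with a library left out rest on a group of 1. Of 169 values of single family genes, 8 turned direction. A changed filter, mean-variance trend, robust estimation, replicate block or threshold leaves the log2 fold change as it was. Those values could not turn. Bad was 0.01 in voom on library totals, 0.05 without sgNT 1 and 0.13 without sgCbfb 2, in a range from -0.14 to 0.13 over single libraries left out. Bcl2l11 was 0.02 without sgNT 2 and 0.07 without sgCbfb 2 (range -0.12 to 0.07), Pmaip1 was -0.19 without sgNT 2 and -0.17 without sgCbfb 1 (range -0.19 to 0.60), and Bbc3 was 0.21 without sgCbfb 1 (range -0.39 to 0.21). Pmaip1 was not tested at a minimum of 5 CPM.

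Against 192 higher and 153 lower genes over all tested, there were 2 and 53 without a low-value filter, 300 higher with a minimum of 5 CPM, 0 and 0 with no mean-variance trend (1461 at an unadjusted p under 0.05), 39 and 44 after quantile normalization, 242 lower in voom with TMM scaling, and 103 and 97 at an adjusted p under 0.01. With the replicate block 320 were higher. Deviations of libraries that share a number were uncorrelated (-0.0042). With 2 libraries per group this cannot show whether the numbers pair libraries, and the labels do not say. Leaving out single libraries gave from 0 to 115 higher and from 0 to 86 lower genes, 0 when either sgCbfb library was left out, where the lone library is assumed to vary like the others. Higher genes made up 55.7% of calls, 48.4% with median centring, 47.0% with quantile normalization, 48.3% with ribosomal RNA genes left out, 41.7% in voom with TMM scaling and 3.64% without a filter.

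Of the pathway lists, 2 genes were higher and 0 lower. Higher genes numbered 4 with a minimum of 5 CPM and with the replicate block, 1 with quantile normalization and at an adjusted p under 0.01, and 0 without the filter or the trend. Lower genes numbered 1 (Casp12) with a minimum of 5 CPM, robust variance estimation, both voom fits and the replicate block. Leaving out single libraries gave from 0 to 2 higher. Family genes whose groups did not overlap numbered 6, 5 with quantile normalization, 4 in voom with TMM scaling and from 6 to 10 without single libraries, where a group of 1 overlaps less easily. Summed levels by role, as a percentage of sgNT, were compared only over other scalings, a smaller prior count and single libraries left out. They were taken from log2 values that include a prior count. Pro-survival levels ran from 91.3 to 102 (96.6 as reported), effector levels from 100 to 108 (104) and BH3-only levels from 99.6 to 106 (103). The causes were not tested. Planned tests with count models were not run, and the recovered reads were analysed with voom instead. At this depth Pmaip1 and Bcl2l15 rest on few reads.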
